A study of Mus musculus with 6 samples.

Results

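The genes examined here encode the machinery that destroys messenger RNA. They comprise the CCR4-NOT, Pan2-Pan3 and Parn deadenylases, the poly(A)-binding proteins and Tob adaptors that guide them, the decapping enzyme with its partners and the Lsm ring, the Xrn exonucleases, the factors of nonsense-mediated decay, and the RNA exosome with its Dis3 relatives. Members were chosen by gene symbol alone, which gave 56 of the 21936 genes listed. RNA of whole uteri was sequenced in 6 libraries, 3 labelled Mettl3 d/d and 3 labelled Mettl3 f/f. All came from females of 6 to 8 weeks mated with fertile males and taken on gestational day 4, counting the plug day as day 1. By the usual notation d/d is the deleted form of the floxed allele f/f. The labels name neither the deleted exons nor the Cre driver. They do not call the replicates separate animals either, so a p-value here speaks of the spread among these 6 libraries.

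A messenger RNA usually begins its decay when deadenylases shorten its poly(A) tail. The cap is then removed and the body is digested from the 5′ end by Xrn1, or the body is digested from the other end by the exosome. Nonsense-mediated decay is a surveillance branch that removes transcripts whose translation ends too early. The link to Mettl3 is that this enzyme writes N6-methyladenosine on RNA, and the reader protein Ythdf2 brings CCR4-NOT to methylated transcripts through its scaffold Cnot1.

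Values were read as FPKM, fragments scaled by transcript length and library size, as the authors deposited them, so levels of different genes can be compared. A gene was called changed at a limma adjusted p under 0.05 over all 12979 genes tested, and a log2 fold change is d/d minus f/f on the scale of log2(FPKM + 1). Mettl3 itself stood at 42.9, 30.1 and 46.5 FPKM in d/d replicates 1, 2 and 3, against 30.3, 29.8 and 26.3 FPKM in f/f replicates 1, 2 and 3 (log2 fold change 0.43, adjusted p = 0.202). This value covers the whole gene and the deleted part is unknown here, so it checks no label, and d/d means labelled d/d throughout. Spearman correlations across all genes were 0.951 to 0.965 within d/d and 0.984 to 0.988 within f/f, with d/d replicate 1 the d/d library nearest to f/f (0.967 to 0.968). The summed FPKM of the cell type markers also spread widely among the d/d libraries. It spanned 647 to 2169 in d/d and 687 to 879 in f/f libraries for 10 epithelial genes. For 9 stromal genes it spanned 1625 to 3810 in d/d and 2867 to 3054 in f/f libraries, and for 6 smooth muscle genes 1028 to 4648 in d/d and 2349 to 5740 in f/f libraries. For 5 endothelial genes it spanned 96.7 to 178 in d/d and 194 to 293 in f/f libraries, and for 9 leukocyte genes 234 to 5240 in d/d and 193 to 311 in f/f libraries. A sum follows its most abundant genes: Lyz2 alone gave 3738 of the 5240 leukocyte FPKM in d/d replicate 2. By the median gene, the log2 difference from the f/f mean in d/d replicates 1, 2 and 3 was -1.25, -0.35 and -1.76 for stroma. For leukocytes it was 1.24, 3.44 and -1.02. Of the stromal genes 6 had a log2 fold change below 0 and 3 above, and of the leukocyte genes 1 below and 8 above. Of the 39 marker genes, 3 were called higher (2 epithelial, 1 leukocyte) and 5 lower (3 stromal, 1 epithelial, 1 endothelial). No marker was at 0 in all libraries, and the part of these shifts in the results below was not tested.

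Across the decay machinery 1 gene passed the test, the deadenylase gene Parn, which was lower in d/d uteri. Of the 55 members that passed the filter of at least 1 FPKM in at least 3 libraries, 0 were called higher and 1 was called lower. That is 1.82% of the members, where 7.30% of all genes tested were called, 3.49% higher and 3.81% lower. Without f/f replicate 1, 2 or 3, or without d/d replicate 3, no member was called. At an unadjusted p under 0.05 there were 3 members, against 26.7% of all genes. The median log2 fold change was -0.02 over the members and 0.02 over all genes tested, with 29 members (52.7%) below 0, against 48.1% of all genes. The range among the other 54 ran from -0.43 for Pan2 to 0.28 for Lsm2.

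The intervals bound the change in the whole-uterus average, given the spread among these 6 libraries. They set no bound on a change within a single cell type. In 54 of 55 members the 95% interval of the log2 fold change lay between -1 and 1, so a 2-fold change in either direction fell outside it. The same held for 61.1% of all genes tested. The fold change itself was under 0.5 in size on the log2 scale for 54 of 55 members and for 68.4% of all genes. The exception was Parn, whose interval reached beyond a 2-fold fall. The narrow intervals went with a small spread: the median SD of a member on the log2 scale was 0.19 among d/d and 0.09 among f/f libraries, against 0.30 and 0.13 over all genes. The d/d and f/f values did not overlap in 11 members (20.0%), 3 higher and 8 lower in d/d, where 35.9% of all genes showed no overlap.

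**Figure D1:**
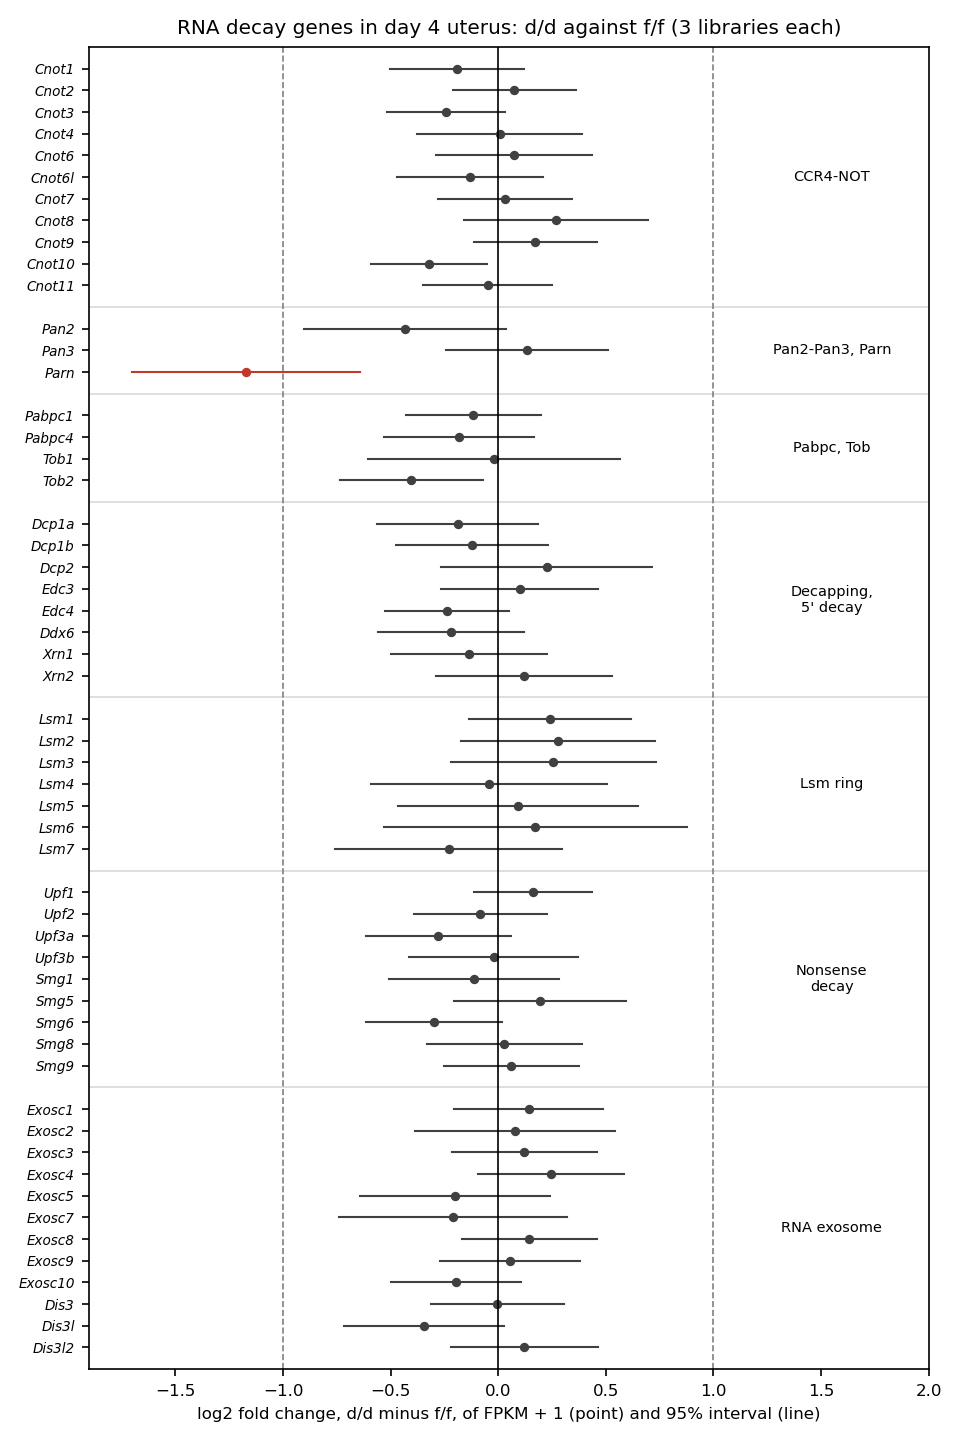
Log2 fold change of the tested members reported by name, d/d minus f/f, with its 95% interval (limma, 3 libraries a genotype), grouped by complex; dashed lines mark a 2-fold change and red marks an adjusted p under 0.05. Parn alone lies left of the lower dashed line, at -1.17, and the other intervals shown stay between the dashed lines.

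Parn encodes a deadenylase that trims the poly(A) tails of messenger RNA and also matures the ends of small non-coding RNAs such as snoRNAs and the telomerase RNA. It stood at 17.2, 10.4 and 11.1 FPKM in d/d replicates 1, 2 and 3, against 26.7, 27.9 and 34.9 FPKM in f/f replicates 1, 2 and 3. All d/d values lay below all f/f values, with d/d replicate 1 the nearest to the f/f range. Against the f/f mean, d/d replicates 1, 2 and 3 held 57.6%, 34.9% and 37.1%. Parn averaged 12.9 ± 3.74 FPKM in d/d and 29.8 ± 4.43 FPKM in f/f libraries (SD, n = 3 each). On the log2 scale it fell by 1.17 (SE 0.22, 95% interval -1.70 to -0.64, adjusted p = 0.0334 by limma). Permuting the labels exactly gave a two-sided p of 0.1, the lowest value possible with 3 libraries a genotype. The fall was seen under each of the 16 alternatives, at -1.38 to -0.99, and its adjusted p ran from 0.0162 to 0.149. The call was lost in 6 of these alternatives, among them those without f/f replicate 1 (adjusted p = 0.147), f/f replicate 2 (0.149), f/f replicate 3 (0.136), d/d replicate 3 (0.0612) or the filter on level (0.0506). In whole tissue, fewer cells of a type and less RNA per cell cannot be told apart.

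**Figure D2:**
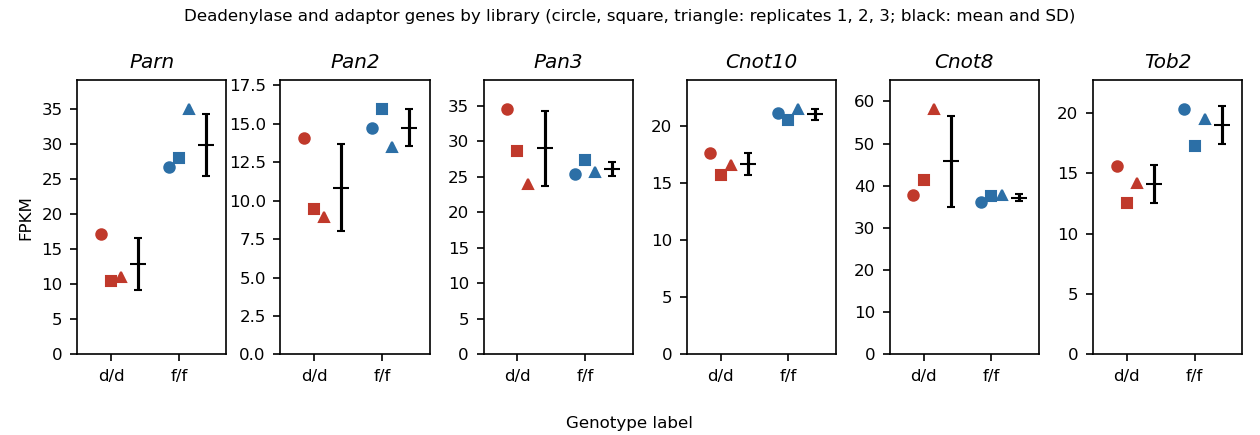
FPKM of 6 deadenylase and adaptor genes in each library, d/d left and f/f right, with the mean and SD in black. The d/d points of Parn (10.4 to 17.2), Cnot10 and Tob2 lie under all f/f points, those of Cnot8 lie above, and Pan2 and Pan3 overlap.

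Parn lies on the minus strand of chromosome 16 (ENSMUSG00000022685, 13537960 to 13668170, GRCm38) and shares no exon with another annotated gene. The 250 bases before its start are printed because Parn was the member that changed, and those of Cnot10, the CCR4-NOT gene with the lowest p, stand beside them. Both are RefSeq sequences of build GRCm38.p6, 5′ to 3′ on the gene's strand, chr16:13668171-13668420 for Parn and chr9:114640201-114640450 for Cnot10, both minus strand. Capitals mark matches on either strand to 6 letter patterns.
Parn: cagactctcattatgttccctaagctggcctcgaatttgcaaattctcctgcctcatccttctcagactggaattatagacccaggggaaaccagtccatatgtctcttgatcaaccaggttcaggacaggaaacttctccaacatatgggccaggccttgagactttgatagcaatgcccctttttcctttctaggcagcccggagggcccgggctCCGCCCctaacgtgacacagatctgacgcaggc
Cnot10: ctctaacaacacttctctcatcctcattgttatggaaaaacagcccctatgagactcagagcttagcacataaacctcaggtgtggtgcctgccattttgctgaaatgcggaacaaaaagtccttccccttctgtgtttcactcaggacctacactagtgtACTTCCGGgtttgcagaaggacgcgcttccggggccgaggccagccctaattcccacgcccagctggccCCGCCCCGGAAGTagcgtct
The patterns were TATAAA of the TATA box, CCAAT of the CCAAT box, GGGCGG of the GC box, CCGGAAGT of the ETS core, CACGTG of the E box and TGACGTCA of the cAMP response element. Parn held 1 GC box, starting 33 bases before the start. Cnot10 held 1 GC box and 2 ETS cores, and its GC box shares bases with the nearer core. A GC box occurred in 69.6% of the 56 member promoters, which belong to 46 members, and in 32.7% of the 32851 promoters of that length. TATAAA occurred in 3.57% of member promoters and 12.4% of all, CCAAT in 26.8% and 33.8%, and the ETS core in 1.79% and 2.88%. The E box occurred in 3.57% of member promoters and 6.02% of all, and the cAMP response element in 1.79% and 1.546%. Member promoters held a median of 22 CG pairs in 250 bases, against 6 over all promoters. Parn held 6 and Cnot10 held 10, both below the member median.

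The genes next to Parn were lower as well. Within 150 kb of its ends lie 5 other protein-coding genes of the tables, a window chosen after values were seen. Bfar, an apoptosis regulator gene that starts 3688 bases beyond the Parn start and runs the other way, stood at 24.6, 21.2 and 16.8 FPKM in d/d against 47.1, 47.1 and 49.8 FPKM in f/f replicates. The gap between the genotypes was wider than the whole range of either (log2 fold change -1.18, SE 0.16, adjusted p = 0.0180). The gene 3110001I22Rik stood at 1.80, 2.67 and 2.10 FPKM in d/d against 4.82, 5.54 and 4.22 FPKM in f/f replicates (log2 fold change -0.88, adjusted p = 0.04005), and 150 of its 1705 exon bases are shared with Bfar. Pla2g10, a secreted phospholipase gene 46.9 kb away, had 0 FPKM listed for d/d replicates 2 and 3 and 11.3 FPKM for d/d replicate 1, against 55.8, 57.4 and 65.3 FPKM in f/f replicates (adjusted p = 0.0411).

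The next genes on either side did not pass. Mrtfb, a transcriptional coactivator gene 120 kb to one side, stood at 13.5, 8.32 and 9.03 FPKM in d/d against 12.7, 13.4 and 12.8 FPKM in f/f replicates (adjusted p = 0.319). Rrn3, an initiation factor gene of RNA polymerase I 113 kb to the other side, stood at 19.4, 14.9 and 16.9 FPKM in d/d against 17.5, 18.5 and 21.4 FPKM in f/f replicates (adjusted p = 0.538). In both genes d/d replicates 2 and 3 lay below all f/f values and d/d replicate 1 did not. With the tested genes ordered by start along each chromosome, Parn, Bfar, 3110001I22Rik and Pla2g10 formed the single run of 4 neighbours called lower. There were 3 runs of 3, 31 of 2 and 419 lone genes. None of the 4 was called without any 1 of the f/f libraries (adjusted p = 0.0954 to 0.194), and without d/d replicate 3 Bfar alone was called (adjusted p = 0.0209). Without d/d replicate 1 the call of 3110001I22Rik was lost (0.0619), and without d/d replicate 2 that of Pla2g10 (0.0612). Without the filter on level the calls of Parn, 3110001I22Rik (0.0632) and Pla2g10 (0.0667) were lost, and at a pseudocount of 0.1 that of Pla2g10 (0.0743).

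**Figure D3:**
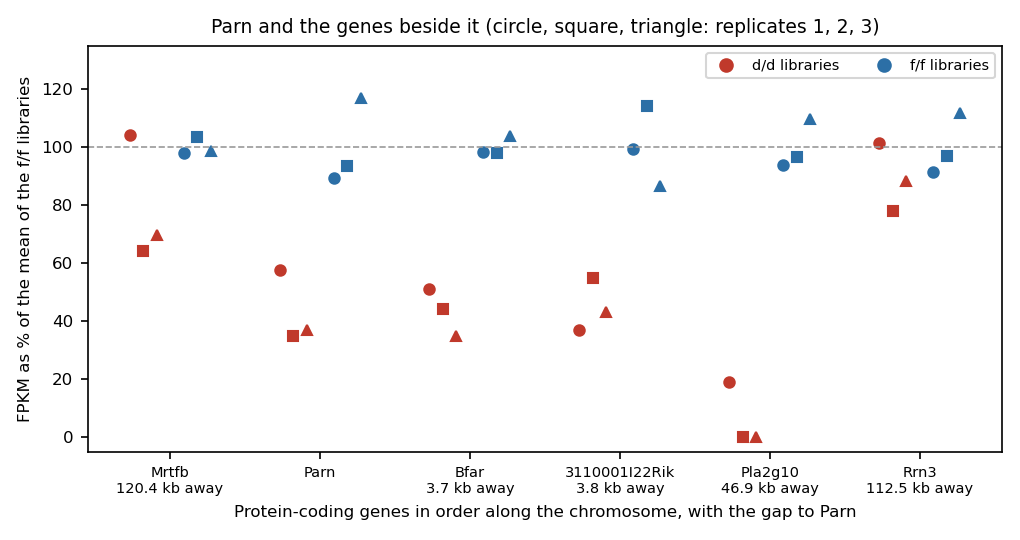
FPKM of Parn and the protein-coding genes within 150 kb of it, as a percentage of the f/f mean of each gene, in order along the chromosome. The d/d points of Parn, Bfar, 3110001I22Rik and Pla2g10 lie under all their f/f points, while those of Mrtfb and Rrn3 overlap them.

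Pan2 and Pan3 form the other poly(A) nuclease outside CCR4-NOT, Pan2 being the nuclease and Pan3 the subunit that binds poly(A)-binding protein. Pan2 stood at 14.1, 9.44 and 8.97 FPKM in d/d replicates 1, 2 and 3, against 14.8, 15.9 and 13.5 FPKM in f/f. It was low in d/d replicates 2 and 3 and within the f/f range in replicate 1, and did not pass (log2 fold change -0.43, 95% interval -0.90 to 0.04, adjusted p = 0.218). Pan3 stood at 34.5, 28.7 and 24.0 FPKM in d/d against 25.4, 27.3 and 25.6 FPKM in f/f (adjusted p = 0.624). Each d/d library had more Pan3 relative to Pan2, 2.45, 3.04 and 2.67 times the Pan2 level in d/d against 1.72, 1.71 and 1.89 times in f/f. The ratio of Parn to Pan2 was 1.22, 1.10 and 1.23 in d/d and 1.81, 1.75 and 2.58 in f/f. Of 12 such pairs of partners or paralogs compared, 3 showed no overlap between the genotypes, and 3 libraries a genotype allow no exact permutation p under 0.1, so none could pass (smallest adjusted p = 0.4).

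In the CCR4-NOT complex, the main deadenylase of the cell, 4 of 11 genes showed no overlap between the genotypes (36.4%, against 35.9% of all genes). Of these, 2 were higher and 2 lower in d/d. All 11 genes were expressed in both genotypes and none was called. Their mean levels spanned 10.97 to 50.7 FPKM in d/d and 12.1 to 57.8 FPKM in f/f libraries, with a median log2 fold change of 0.01 that turned negative when libraries were rescaled (-0.05 to -0.09) and without d/d replicate 1 (-0.11), f/f replicate 1 (-0.03) or f/f replicate 3 (-0.0022). Cnot1, the scaffold on which the others assemble and the most abundant, stood at 58.6, 47.2 and 46.4 FPKM in d/d against 57.2, 56.8 and 59.4 FPKM in f/f (adjusted p = 0.387). The first d/d library matched the f/f range and the other 2 lay below it.

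Cnot10, which with Cnot11 forms a module at the amino end of the scaffold, stood at 17.6, 15.7 and 16.5 FPKM in d/d against 21.1, 20.5 and 21.4 FPKM in f/f. The genotypes did not overlap, but the difference did not pass (log2 fold change -0.32, SE 0.11, adjusted p = 0.130). Cnot3, a subunit of the module that also holds Cnot2, stood at 41.6, 38.5 and 42.8 FPKM in d/d against 53.1, 47.0 and 46.1 FPKM in f/f (log2 fold change -0.24, adjusted p = 0.238). It too was low in all d/d libraries, and its exons overlap those of Leng1 on the opposite strand by 433 bases. Their partners Cnot11 and Cnot2 overlapped between the genotypes, with log2 fold changes of -0.05 and 0.07.

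The nuclease subunits come in pairs of paralogs, of which a complex holds 1 each. Cnot8 stood at 37.9, 41.2 and 58.1 FPKM in d/d against 36.2, 37.7 and 37.7 FPKM in f/f (log2 fold change 0.27, adjusted p = 0.379). The difference came mostly from d/d replicate 3, and d/d replicate 1 was barely above the f/f range. Its paralog Cnot7 stood at 41.4, 32.3 and 34.7 FPKM in d/d against 35.4, 34.4 and 35.7 FPKM in f/f. The Cnot8 to Cnot7 ratio was therefore 0.914, 1.28 and 1.67 in d/d replicates 1, 2 and 3, against a narrow 1.02, 1.10 and 1.05 in f/f replicates. In the other pair, Cnot6 stood at 21.96, 23.4 and 29.2 FPKM in d/d against 21.9, 22.5 and 26.0 FPKM in f/f, and Cnot6l at 12.5, 10.5 and 9.93 FPKM in d/d against 11.4, 13.0 and 11.9 FPKM in f/f. Cnot6 was thus the more abundant in every library. Cnot9, a small subunit that docks recruiting proteins, stood at 17.1, 16.2 and 19.0 FPKM in d/d against 15.2, 15.1 and 15.6 FPKM in f/f, higher in all d/d libraries without passing (log2 fold change 0.17, adjusted p = 0.398). Cnot4, a ubiquitin ligase gene grouped here with the complex, had a log2 fold change of 0.01 (95% interval -0.38 to 0.39).

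Pabpc1, the chief cytoplasmic poly(A)-binding protein gene, had the highest level of all members. It stood at 299, 328 and 359 FPKM in d/d against 374, 336 and 355 FPKM in f/f (log2 fold change -0.12, adjusted p = 0.613). Its relative Pabpc4 stood at 23.4, 23.9 and 30.0 FPKM in d/d against 31.9, 27.0 and 28.8 FPKM in f/f (adjusted p = 0.465). Both overlapped between the genotypes, and in d/d replicate 3 both were at the f/f level. Near-identical copies, at 90% identity over at least 50% of the transcript, exist for Pabpc1 (1 other gene) and Pabpc4 (8 other genes), so these values depend on how shared fragments were assigned.

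Tob1 and Tob2 are antiproliferative adaptors that join poly(A)-binding protein to the CCR4-NOT nucleases. Tob2 stood at 15.6, 12.5 and 14.2 FPKM in d/d against 20.3, 17.3 and 19.5 FPKM in f/f. It was lower in all d/d libraries and, with Parn and Cnot10, was 1 of the 3 members with an unadjusted p under 0.05 (log2 fold change -0.41, SE 0.14, adjusted p = 0.124). Tob1 stood at 20.6, 12.2 and 22.3 FPKM in d/d against 16.5, 17.2 and 20.6 FPKM in f/f. Its d/d values lay on both sides of the f/f range, and the log2 fold change was -0.02 (95% interval -0.61 to 0.57).

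**Figure D4:**
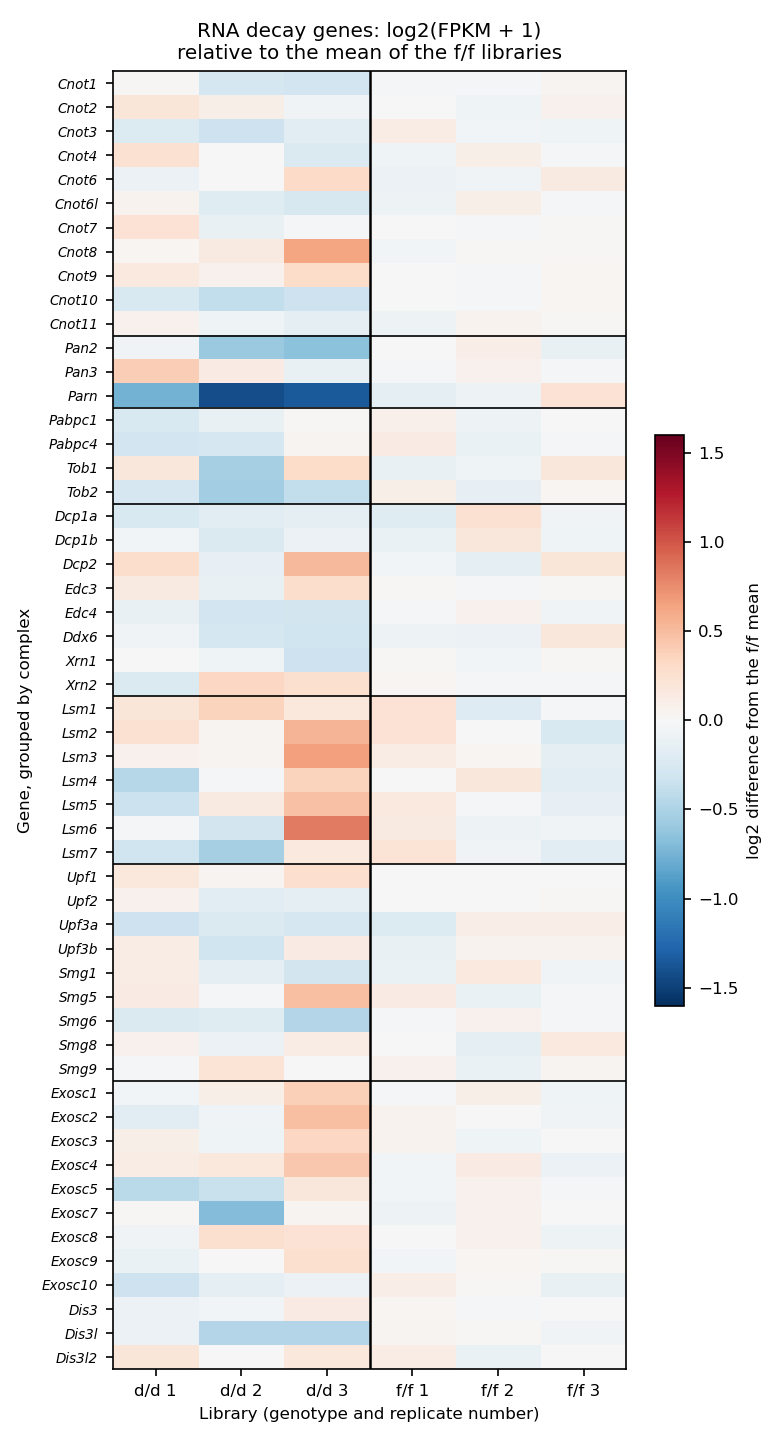
Log2(FPKM + 1) of the tested members reported by name in each library, relative to the mean of the f/f libraries, with d/d libraries left of the line. Parn is blue in all d/d libraries, and 5 of the 7 Lsm genes and 7 of the 12 exosome genes have their highest value in d/d replicate 3.

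Of the 8 genes for decapping and digestion from the 5′ end, none was called, and 5 had a log2 fold change below 0. Their median was -0.13, and it was -0.05 without f/f replicate 2, -0.08 without d/d replicate 3 and -0.23 with equal totals. Dcp2, the decapping enzyme, stood at 17.6, 13.0 and 21.03 FPKM in d/d against 13.9, 12.8 and 16.6 FPKM in f/f (adjusted p = 0.522). Its activators Dcp1a and Dcp1b had log2 fold changes of -0.19 and -0.12. Edc4, the scaffold that holds enzyme and activator together, stood at 18.1, 15.8 and 16.0 FPKM in d/d against 19.5, 20.8 and 19.0 FPKM in f/f. It was lower in all d/d libraries by a small margin and did not pass (log2 fold change -0.24, adjusted p = 0.258). Ddx6, a helicase that links CCR4-NOT to decapping, stood at 34.6, 29.3 and 28.5 FPKM in d/d against 33.8, 33.4 and 40.9 FPKM in f/f (adjusted p = 0.362). The other decapping enhancer, Edc3, shares 1284 exon bases with Clk3 on the opposite strand and had a log2 fold change of 0.10. Xrn1, the cytoplasmic exonuclease, was the member with the lowest mean among those tested, at 5.51, 5.28 and 4.21 FPKM in d/d against 5.65, 5.39 and 5.65 FPKM in f/f. The nuclear exonuclease Xrn2 was far more abundant, at 45.1, 66.9 and 63.4 FPKM in d/d against 54.2, 52.3 and 52.5 FPKM in f/f. Neither passed (adjusted p = 0.605 and 0.690).

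The 7 Lsm genes encode a ring that binds shortened messenger RNAs and activates decapping, and Lsm2 to Lsm7 also sit in a nuclear ring around U6 RNA. No Lsm gene was called and all overlapped between the genotypes. The median log2 fold change was 0.17, positive also under the 3 rescalings (0.07 to 0.11). It was 0.04 with libraries weighted by their spread and -0.10 without d/d replicate 3. Lsm6 had the widest spread among d/d libraries of all tested members on the log2 scale (SD 0.58), at 42.8, 35.5 and 78.1 FPKM in d/d against 48.5, 41.0 and 41.7 FPKM in f/f. Lsm3 stood at 94.3, 92.5 and 142 FPKM in d/d against 97.7, 91.8 and 80.6 FPKM in f/f. In both, d/d replicate 3 was far above the f/f range and the other d/d libraries were not. Lsm2 stood at 86.2, 74.5 and 106 FPKM in d/d against 85.5, 72.7 and 61.2 FPKM in f/f (adjusted p = 0.388). Lsm1, the subunit found only in the cytoplasmic ring, stood at 14.7, 16.6 and 14.4 FPKM in d/d against 15.1, 10.9 and 12.5 FPKM in f/f (adjusted p = 0.372). Lsm7 had the largest negative log2 fold change of the ring, -0.23 (95% interval -0.76 to 0.30), and Lsm4 and Lsm5 had -0.04 and 0.09. Lsm5 and Lsm7 each have 2 near-identical copies elsewhere.

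Short transcripts at large lay above the f/f mean in d/d replicate 3 too, by less than the Lsm ring. Lsm6, at 179% of its f/f mean in that library, has a transcript of 3792 bases. Relative to the f/f mean, the median of the Lsm ring was -0.03, 0.04 and 0.46 on the log2 scale in d/d replicates 1, 2 and 3, against 0.16, -0.03 and -0.15 in f/f replicates. Of the 7 Lsm genes, 5 were highest in d/d replicate 3. The 5 members with transcripts under 1000 bases, all of them Lsm genes, had medians of -0.32, 0.04 and 0.46 in d/d replicates 1, 2 and 3. All 817 tested genes with transcripts under 1000 bases had medians of -0.14, 0.01 and 0.17 in these libraries, against 0.03, 0.04 and -0.06 in f/f replicates. Whether transcript length accounts for the ring's values was not tested. Over all members, d/d replicate 3 was the highest library for 21 (38.2%), against 29.4% of all genes.

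**Figure D5:**
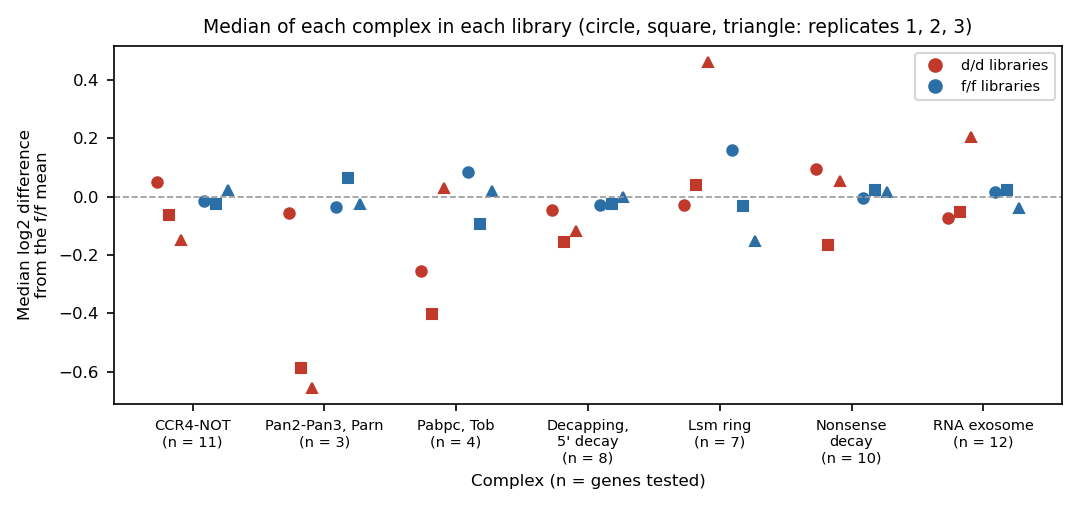
Median over the tested genes of each complex of the log2 difference from the f/f mean, in each library, d/d left and f/f right. The Lsm ring (0.46) and the RNA exosome (0.20) stand above their f/f libraries in d/d replicate 3. The group of Pan2, Pan3 and Parn is the lowest in d/d replicates 2 and 3, at -0.59 and -0.66. With 3 genes in the group, these medians are the values of Pan2. In d/d replicate 1 that group is at -0.06, and the Pabpc and Tob group is the lowest at -0.26.

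None of the 10 genes of nonsense-mediated decay was called, with a median log2 fold change of -0.05. That median was 0.04 without d/d replicate 2, -0.13 without d/d replicate 1 and -0.15 with equal totals. Upf1, the helicase at the centre of the pathway, stood at 24.6, 22.4 and 26.3 FPKM in d/d against a tight 21.7, 21.5 and 21.9 FPKM in f/f. All d/d values lay above the f/f values, without passing (log2 fold change 0.16, SE 0.11, adjusted p = 0.411). Upf2, which bridges Upf1 to the exon junction complex, had a log2 fold change of -0.08 (95% interval -0.39 to 0.23). The paralogs Upf3a and Upf3b connect to the exon junction, and Upf3b is the stronger activator. Upf3a stood at 13.8, 14.7 and 14.4 FPKM in d/d against 14.9, 19.0 and 19.0 FPKM in f/f (log2 fold change -0.28, adjusted p = 0.261). Upf3b stood at 24.5, 17.8 and 24.8 FPKM in d/d against 20.6, 23.5 and 23.4 FPKM in f/f (adjusted p = 0.950). Upf3a was thus lower in all d/d libraries, by a narrow margin over f/f replicate 1, while Upf3b was not.

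Smg6, the endonuclease that cuts targeted transcripts, stood at 13.2, 13.5 and 11.1 FPKM in d/d against 15.3, 16.4 and 15.3 FPKM in f/f. It was lower in all d/d libraries and had the lowest p of the pathway (log2 fold change -0.30, 95% interval -0.61 to 0.02, adjusted p = 0.207). Smg5, which recruits deadenylation and decapping instead, stood at 32.3, 28.6 and 41.4 FPKM in d/d against 32.15, 27.3 and 28.9 FPKM in f/f (adjusted p = 0.495). The Smg6 to Smg5 ratio was 0.408, 0.471 and 0.267 in d/d against 0.475, 0.602 and 0.530 in f/f, the third of the pairs without overlap. The kinase gene Smg1, which phosphorylates Upf1, had a log2 fold change of -0.11, and its regulators Smg8 and Smg9 had 0.03 and 0.06.

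The RNA exosome is a ring of 9 subunits to which the nucleases Dis3 and Exosc10 attach. None of the 12 tested exosome genes was called, and the median log2 fold change was 0.07. That median turned to -0.01 under quantile normalization, to -0.03 with equal totals and to -0.06 without d/d replicate 3. With libraries weighted by their spread it was -0.02. Exosc4, a ring subunit, had the largest positive log2 fold change of the group, at 20.6, 21.5 and 26.0 FPKM in d/d against 18.4, 20.9 and 17.7 FPKM in f/f (0.24, adjusted p = 0.317). Exosc2, a cap subunit, stood at 18.5, 20.1 and 29.7 FPKM in d/d against 21.9, 21.02 and 20.2 FPKM in f/f. Both were highest in d/d replicate 3, as were 7 of the 12 tested exosome genes. Exosc7 stood at 34.5, 20.6 and 35.0 FPKM in d/d against 32.1, 35.8 and 34.1 FPKM in f/f, so that d/d replicate 2 alone was low. Exosc5, a subunit of the ring, stood at 26.1, 27.5 and 40.1 FPKM in d/d against 34.4, 37.1 and 34.7 FPKM in f/f, below the f/f range in d/d replicates 1 and 2 and above it in d/d replicate 3. The other ring and cap subunits, Exosc1, Exosc3, Exosc8 and Exosc9, had log2 fold changes of 0.05 to 0.14 (adjusted p = 0.521 to 0.829).

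Among the nucleases, Exosc10 stood at 24.0, 27.2 and 28.5 FPKM in d/d against 32.8, 30.8 and 28.0 FPKM in f/f (adjusted p = 0.363). Dis3 was nearly level, at 9.08, 9.47 and 10.8 FPKM in d/d against 9.99, 9.53 and 9.81 FPKM in f/f (95% interval of the log2 fold change -0.31 to 0.31). Its cytoplasmic relative Dis3l stood at 11.8, 8.82 and 8.83 FPKM in d/d against 13.0, 12.8 and 12.1 FPKM in f/f. Dis3l was lower in all d/d libraries and did not pass (log2 fold change -0.35, 95% interval -0.72 to 0.03, adjusted p = 0.215). Dis3l2, which digests uridylated RNA without the exosome ring, had a log2 fold change of 0.12 (95% interval -0.22 to 0.46).

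Exosc6 was the member that did not pass the filter. It had 2.91, 0 and 4.92 FPKM in d/d replicates 1, 2 and 3, and the f/f tables list 0 for it in all 3 replicates. All 1326 of its exon bases lie within exons of Aars on the same strand, so fragments of the 2 genes cannot be told apart there, and no fold is given.

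Genes that work with the decay machinery were taken from 7 lists, of which 78 genes were tested, and 3 were higher and 0 lower in d/d. That is 3.85%, against 7.30% of all genes. None of the 3 was called without any 1 of the f/f libraries (adjusted p = 0.101 to 0.172). Of 21 genes that recruit deadenylases, 2 were higher. Ythdf2, the N6-methyladenosine reader, rose to 41.7, 37.4 and 47.6 FPKM in d/d, against 22.995, 19.1 and 25.04 FPKM in f/f (log2 fold change 0.89, SE 0.15, adjusted p = 0.0287). Zfp36l2, which binds AU-rich elements and recruits CCR4-NOT, rose to 37.3, 61.8 and 49.8 FPKM in d/d, against 23.6, 26.0 and 22.3 FPKM in f/f (log2 fold change 0.99, SE 0.20, adjusted p = 0.0384). All d/d values of both genes lay above all f/f values, while Cnot1, their docking scaffold, did not pass. Zfp36l2 also missed the threshold when d/d replicate 3 was left out (adjusted p = 0.0678) or no filter on level was used (0.0553).

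Of 13 exosome cofactors, Pelo was higher. It encodes a rescue factor for stalled ribosomes and stood at 21.6, 21.5 and 27.9 FPKM in d/d against 13.6, 13.8 and 12.7 FPKM in f/f (log2 fold change 0.77, SE 0.14, adjusted p = 0.0333). The other 12, with the cytoplasmic helicase Skiv2l and the nuclear helicase Mtrex among them, did not pass. No gene passed among 11 decapping partners, 12 exon junction and termination factors, 7 further enzymes of RNA ends or 7 further poly(A)-binding proteins and partners. The lowest p values in these lists belonged to the reader gene Ythdf1 (log2 fold change 0.56, adjusted p = 0.0778), the cap-binding gene Ncbp2 (0.35, adjusted p = 0.191), the circadian gene Noct (-0.70, adjusted p = 0.165) and the translation repressor gene Paip2 (-0.34, adjusted p = 0.160). Genes above and below 0 numbered 5 and 6, 10 and 2, 6 and 1, and 4 and 3 in the 4 lists, in that order. Noct was the 1 below 0 in its list. Close behind it in p were Eri1 (0.38, adjusted p = 0.168) and Angel1 (0.46, adjusted p = 0.170), both higher in all d/d libraries.

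Transcripts known to be substrates of nonsense-mediated decay can report on its activity, although stress and transcription move them too. None of the 7 tested passed, and the median log2 fold change was 0.29, with 5 above 0 and 2 below. The lower 2 were Upp1 (log2 fold change -0.54, adjusted p = 0.377) and Ddit3 (-0.15, adjusted p = 0.864). Gadd45b stood at 11.9, 23.7 and 14.4 FPKM in d/d against 7.41, 7.21 and 3.81 FPKM in f/f, higher in all d/d libraries (log2 fold change 1.30, 95% interval 0.51 to 2.09, adjusted p = 0.0668). Gadd45a stood at 40.6, 43.6 and 113 FPKM in d/d against 28.7, 39.7 and 28.4 FPKM in f/f (adjusted p = 0.238). Atf4 stood at 69.3, 90.1 and 152 FPKM in d/d against 80.9, 65.1 and 64.2 FPKM in f/f (adjusted p = 0.330). In the last 2, d/d replicate 3 held the highest value.

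The members lie on 18 chromosomes, with 9 of them on chromosome 8. Their transcripts had a median length of 3019 bases and 11 exons, against 2981 bases and 9 exons over the tested genes. The sequence GGACT, a common core of N6-methyladenosine sites, occurred at a median of 0.773 per kb in member transcripts and 1.06 per kb in those of all tested genes. Parn held 1 match in 2906 bases, while Cnot3 and Upf3a held none in 2822 and 2057 bases. None was found in 4 of the Lsm genes either, whose transcripts are short, at 468 to 925 bases. A match is a description of the letters and says nothing of methylation, which was not measured in these libraries.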

How the data were processed

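The authors deposited 1 table per library with an Ensembl gene ID, a symbol and 1 value a gene. The values were taken as FPKM, as deposited by the authors; the headers give no unit, so it was inferred from decimal values, unequal totals of 535043 to 625575 and the listing of Cufflinks. The aligner HISAT2 (2.2.1) and the quantifier Cufflinks (2.2.1) are listed per the submitters' processing notes, beside builds mm9 and mm10. Which build served for what, the gene models and strand handling are not stated in the labels. The absolute depth is unknown. Relative depth, from the steps of values under 0.3 FPKM, was 0.935 to 1.01 times that of f/f replicate 1, so no counting interval is given, and a 0 may be a failed estimate.

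Of rows that share a symbol the highest was kept (36 removed). Genes with at least 1 FPKM in at least 3 of 6 libraries, 12979 in all, entered limma (3.58.1, R 4.3.3) as log2(FPKM + 1), with genotype as the single term, a variance prior that follows the mean level, two-sided p-values and Benjamini-Hochberg adjustment over all genes, after a check on simulated data. Members are all genes matching the symbol rule, of which 1 is counted but not reported here by name. Values by library are given for called members, members whose genotypes do not overlap and the 2 of each complex with the lowest p, with others added after values were seen. The members, the lists and the tests were chosen with earlier results of these data known. Coordinates and exon overlaps come from GENCODE M21 and near-identical copies from blastn 2.17.0. The alternatives were 3 rescalings, another pseudocount, 2 other filters, 2 variance models, a replicate block, summing of shared symbols and leaving out each library.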

Additional observations from a re-analysis of the deposited data

How the results depend on the processing

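The 17 members examined were those called, those without overlap between the genotypes and the 2 of each complex with the lowest p. They were thus picked from these same values, and each alternative refits the same libraries, so kept signs are no independent support. None but Parn was called to begin with. Over 16 alternatives the sign of the log2 fold change was kept in 272 of 272 fits, and the side of the threshold in 266. The other 6 were all Parn. Its call was lost without a filter on level, where more genes are tested (adjusted p = 0.0506), with the replicate block (0.0959), and without f/f replicate 1, 2 or 3 or d/d replicate 3. The count of members called lower was then 0, and that of members called higher was 0 throughout. Over the libraries left out in turn, the median log2 fold change of the members ranged from -0.07 to 0.02, members called lower ranged from 0 to 1, companion genes called higher from 0 to 5 and lower from 0 to 1, genes called higher from 0 to 649 and genes called lower from 0 to 738. With f/f replicate 1 or 2 left out limma called 0 genes, with 2186 and 2148 at an unadjusted p under 0.05. Why the calls rest on the f/f libraries was not tested. Without the filter 291 genes were called higher, against 453.

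No pairing by replicate number was seen. Same-numbered libraries correlated at -0.02, 0.02 and -0.02 in their deviations from the genotype means, and differently numbered ones at -0.14 to 0.12. With the replicate block, 51 genes were called higher and 49 lower, against 453 and 494 without it, and 0 members were called lower and 0 companion genes higher. The block also ended the calls of Bfar (0.0693), 3110001I22Rik (0.101) and Pla2g10 (0.0819). The median log2 fold change of the members was -0.12 with equal totals, where that of all genes was -0.08, against -0.02 and 0.02 as deposited. Rescaling moved the called genes from 453 higher and 494 lower to 372 and 573 with median scaling, to 462 and 603 with quantile normalization, and to 353 and 537 with equal totals. The unknown depth and 3 libraries a genotype limit what could be detected.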
